A study of Rattus with 12 samples.

Results

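Interferon-stimulated genes were followed in 12 complex cultures from rat, in which neurons were plated together with astrocytes and precursors of oligodendrocytes (OPCs) and kept without fentanyl or with 1 of 2 doses of this opioid receptor agonist for 4 days. A list of 44 gene symbols was looked up in the table of gene counts. Of these, 41 were among the 17337 genes of the table, and Herc6, Ifi44l and Xaf1 were not analysed here. All 41 passed the filter on low counts that left 12271 genes for the tests. The untreated condition (0 μM), the low dose (0.01 μM) and the high dose (10 μM) held 4 cultures each. Every culture, untreated ones included, was made of purchased primary cortical neurons, astrocytes and OPCs of the Sprague Dawley strain. A culture was thus assembled from purchased cells and not plated directly from a dissociated tissue.

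Interferons are cytokines that cells release when they sense viral nucleic acid or other danger signals. Type I interferons bind a receptor that activates the kinases Jak1 and Tyk2, and a complex of transcription factors that holds Stat2 and Irf9 then moves to the nucleus and switches on interferon-stimulated genes. The products of these genes detect foreign RNA, block viral entry, translation and release, and feed back on the pathway itself. In the brain, neurons, astrocytes and microglia all respond to interferon, and microglia are a well-known source of several of these transcripts.

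Levels are given as CPM, a gene's count divided by the total count of its culture after scaling and brought to a common library size. Totals ranged from 12059872 to 24813893 counts, so 3 counts, taken as the smallest amount that could be told from 0, corresponded to 0.124 to 0.249 CPM (counting error only). Cultures are named by the letters of their labels. The letters formed sets (A-B-C, then G-H-I, then M-N-O, and last P-Q-R), each with 1 untreated, 1 low dose and 1 high dose culture in that order, and the labels do not say what the letters stand for. Markers of the 3 plated cell types were present in all cultures, but the summed neuron markers were at 570 CPM in untreated culture G and at 3900 to 8390 CPM in the others. Markers of microglia or macrophages, which the labels do not list among the plated cells, summed to 557 to 2130 CPM in the first 3 letter sets and to 62.5 to 81.5 CPM in P-Q-R. In bulk RNA, fewer cells of a type and less RNA per cell cannot be told apart.

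**Figure D1:**
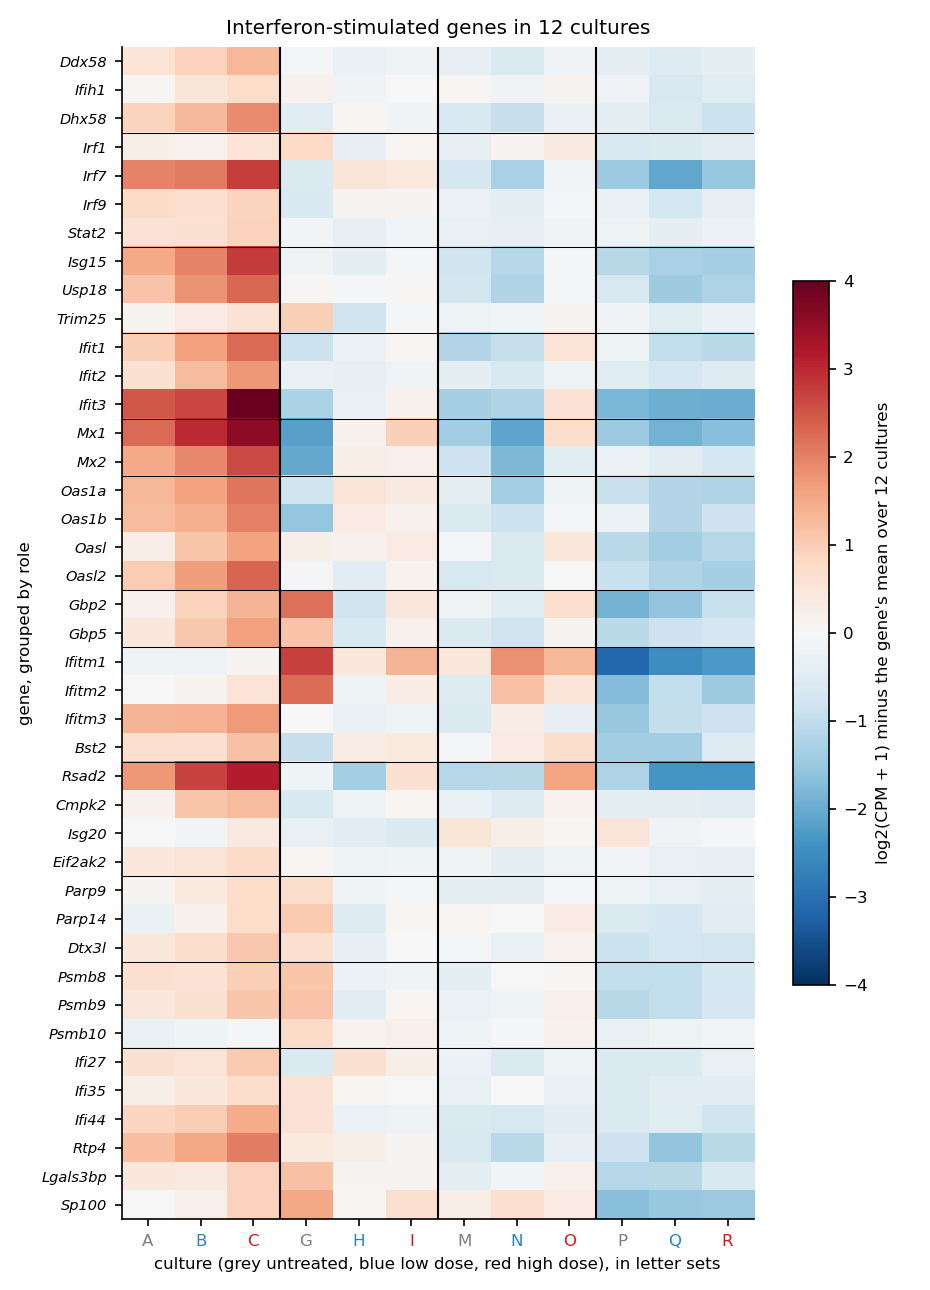
Level of each of the 41 interferon-stimulated genes (rows, grouped by role with thin lines) in the 12 cultures (columns, letter sets split by thick lines), as log2(CPM + 1) minus the gene's mean over the 12 cultures. Cultures A, B and C form a block of higher values for most genes. Culture C is the highest for 29 of the 41, against 5.73% of all genes, and culture G for 11, against 27.7%. P, Q or R is the lowest for 28, for which no share of all genes is given.

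The first question was whether these genes changed with fentanyl. None of the 41 genes passed the edgeR quasi-likelihood test when either dose was compared with untreated cultures or the doses with each other. A call required an adjusted p under 0.05 together with a log2 fold change beyond 0.5, up or down. The same held for all genes, of which 0% were called in each comparison. At an unadjusted p under 0.05 there were 0 interferon-stimulated genes in any comparison and 91, 146 and 144 of the 12271 genes. DESeq2 with the same model called 0 of the 41 in each comparison as well. The smallest p among the 41 was 0.173 for low dose vs. untreated, 0.0719 for high dose vs. untreated and 0.117 for high vs. low dose, and every adjusted p was 1. Standard errors of the log2 fold changes ran up to 1.73, with a median of 0.639 in high dose vs. untreated. This model had no term for the letter sets. With the sets as a block in place of the factor, 0, 4 and 3 of the 41 had an unadjusted p under 0.05 in the same order of comparisons. The share of all genes at that threshold is not given for this fit. None of the 41 was called with the block, and 0% of all genes were.

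The fitted values lay mostly on the positive side where the high dose was involved. In high dose vs. untreated, 39 of 41 log2 fold changes were above 0, with a median of 0.44, while 50.8% of all genes were above 0 with a median of 0.0031. In high vs. low dose, 40 of 41 were above 0 with a median of 0.39, against 47.6% and -0.0087 for all genes. Low dose vs. untreated showed 22 of 41 above 0 with a median of 0.013, the same as the median of 0.013 over all genes. The 3 comparisons share cultures pairwise, so they are not independent of each other. Other ways of handling unwanted variation moved the median for high dose vs. untreated to 0.26 (no factor), 0.17 (2 factors) and 0.36 (4 factors). It was 0.21 with the letter sets as a block, with 33 of 41 above 0, and 0.41 with the block and without untreated culture G. A stricter filter of at least 10 counts in every culture gave 0.25.

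These positive medians moved when single cultures were left out. The fits without a culture had no term for the letter sets, so the sets were no longer balanced between doses. The shifts therefore cannot tell a dose difference from a difference between sets. Without high dose culture C the median for high dose vs. untreated was -0.16 with 13 of 41 genes above 0, and for high vs. low dose it was -0.21 with 7 above 0. Leaving out untreated culture P gave -0.012 for high dose vs. untreated with 18 above 0. Without untreated culture A that median was 0.99, without untreated culture M 0.24 and without untreated culture G 0.19. For low dose vs. untreated, the median was 0.62 without untreated culture A, -0.42 without low dose culture B and -0.40 without untreated culture P. High vs. low dose had a median of 0.78 without low dose culture B, 0.60 without high dose culture R, 0.24 without untreated culture G and 0.17 without low dose culture Q. Cultures A, B and C had the highest levels of most of these genes and P, Q and R the lowest.

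**Figure D2:**
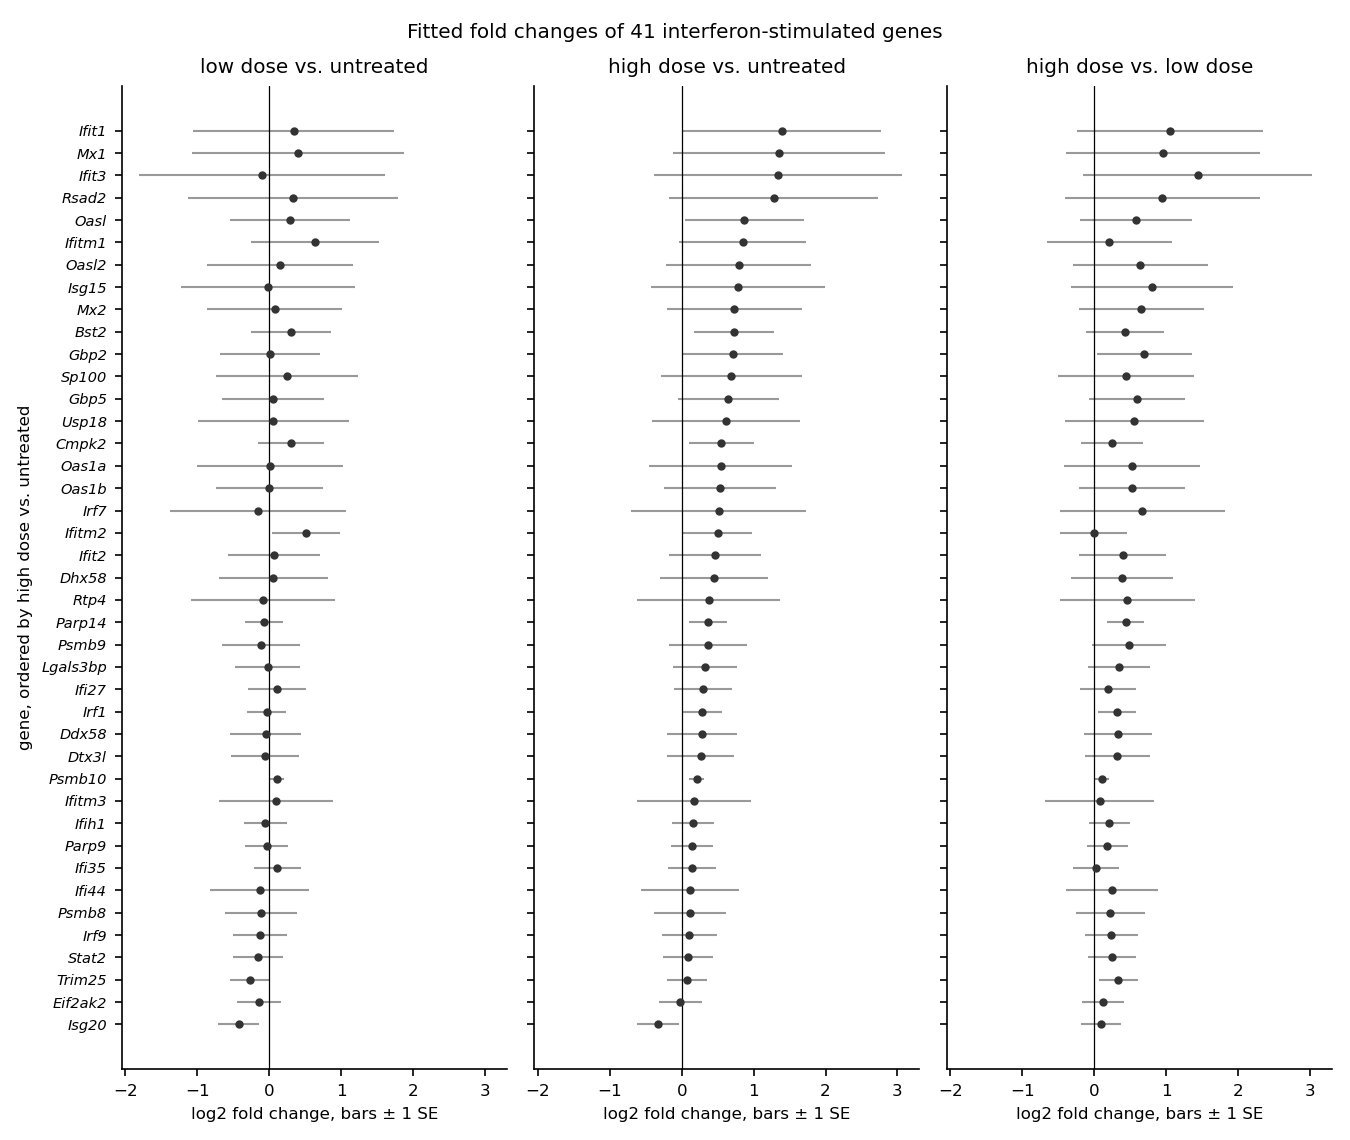
Fitted log2 fold change (x axis, bars ± 1 SE) of the 41 genes (y axis) in the 3 dose comparisons, from the model with 12 cultures. Values for high dose vs. untreated run from -0.33 for Isg20 to 1.39 for Ifit1, and the bars of the genes with the highest values are the widest.

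Bst2, Isg15, Mx1 and Oasl are the members that the study itself singled out from these libraries, so their direction here is not independent evidence. Bst2 encodes tetherin, which holds budding virus particles at the cell surface. It was at 75.8, 24.6, 45.9 and 17.3 CPM in the untreated cultures A, G, M and P, at 73.8, 58.8, 60.1 and 17.5 CPM in the low dose cultures B, H, N and Q, and at 109, 62.5, 77.7 and 32.5 CPM in the high dose cultures C, I, O and R. Its high dose culture was above its untreated culture in all 4 letter sets, but the doses overlapped widely. The log2 fold change in high dose vs. untreated was 0.73 with an SE of 0.56 (adjusted p = 1), and 0.31 without untreated culture P and 1.34 without untreated culture A. With the letter sets as a block in place of the factor, the value was 0.86 with a smaller SE of 0.20 (adjusted p = 0.882).

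Isg15 encodes a ubiquitin-like protein that is attached to other proteins. Levels were 25.3, 7.39, 4.32 and 3.24 CPM in the untreated, 35.7, 6.24, 3.20 and 2.75 CPM in the low dose and 62.7, 7.87, 7.80 and 2.69 CPM in the high dose cultures, in the order of the letter sets. The 3 cultures of A-B-C stood above all others at every dose. The log2 fold change in high dose vs. untreated was 0.79 with an SE of 1.21 (adjusted p = 1), and it was -0.78 without high dose culture C and -0.14 without untreated culture P.

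Mx1 encodes a GTPase that traps viral nucleocapsids. It was at 84.0, 2.92, 5.76 and 5.49 CPM in the untreated, 140, 18.9, 3.13 and 3.78 CPM in the low dose and 211, 32.9, 27.7 and 4.55 CPM in the high dose cultures. Within the letter sets the high dose culture was above the untreated one in A-B-C, G-H-I and M-N-O and below it in P-Q-R. The log2 fold change in high dose vs. untreated was 1.35 with an SE of 1.48 (adjusted p = 1). Oasl belongs to the family of 2′-5′-oligoadenylate synthetase-like proteins, and its log2 fold change in the same comparison was 0.87 with an SE of 0.83 (adjusted p = 1). Leaving out high dose culture C, untreated culture P or untreated culture A gave 0.042, 0.51 and 3.87 for Mx1 and 0.21, 0.22 and 1.32 for Oasl.

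Of the members with the 3 smallest p-values per comparison, Bst2 in high dose vs. untreated is described above. The log2 fold changes of the others lay between -0.42 and 0.51. Isg20, an exonuclease that degrades single-stranded RNA, gave -0.42 with an SE of 0.29 in low dose vs. untreated. It was lower in the low dose culture of all 4 letter sets, as 1 of 41 members. Its levels were 5.37, 4.09, 7.68 and 7.90 CPM in the untreated and 4.77, 3.58, 6.33 and 4.68 CPM in the low dose cultures, so the ranges overlapped. The share of all genes lower in all 4 sets is not given here, while 4.06% were higher in all 4. Psmb10, a catalytic subunit of the immunoproteasome, gave 0.21 with an SE of 0.11 in high dose vs. untreated and 0.11 with an SE of 0.11 in low dose vs. untreated. Without the factor of unwanted variation these values were -0.025 and -0.15, and the untreated culture G, at 58.7 CPM, stood above the other 3 untreated cultures at 27.2 to 30.0 CPM.

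The remaining genes of this kind were Ifitm2, Parp14, Trim25 and Irf1. Ifitm2, which restricts virus entry, gave 0.51 with an SE of 0.48 in low dose vs. untreated, but -0.52 without the factor and -0.034 with the letter sets as a block. Parp14, an ADP-ribosyltransferase, gave 0.37 with an SE of 0.26 at the high dose against untreated and 0.43 with an SE of 0.25 against the low dose. The former was 0.025 without the factor, 0.050 with the letter sets as a block and 0.13 without high dose culture C or untreated culture P, and the latter was 0.19 without C. Trim25, a ubiquitin ligase that activates RIG-I, gave 0.34 with an SE of 0.27, and Irf1, a transcription factor of the interferon response, 0.32 with an SE of 0.26 in high vs. low dose. The adjusted p was 1 for all of them.

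Differences were then taken within each letter set, which needs no model. Set A-B-C showed all 41 genes above the untreated culture at the high dose, with a median difference of 0.76 in log2(CPM + 1). In M-N-O, 39 of 41 were above it with a median of 0.36, Isg20 and Eif2ak2 being the exceptions. G-H-I and P-Q-R went the other way for most genes, with 17 and 16 of 41 above the untreated culture and medians of -0.17 and -0.055. The untreated culture of G-H-I is culture G, which had few neuron markers. It had the highest level of 11 of the 41 members, against 27.7% of all genes, so this is close to the background. With the sets as a block and G left out, 40 of 41 fitted values were above 0 in high dose vs. untreated. Their median was 0.41, against 0.001 over all genes. The share of all genes above the untreated culture was 48.9% to 50.6% in the 4 sets.

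Bst2 and Ifi27 were higher at the high dose than untreated in all 4 letter sets. That is 2 of 41, against 5.22% of all genes, so it is close to the background. The corresponding count was 0 for low dose vs. untreated, against 4.06% of all genes. For high vs. low dose, 17 of the 41 were higher in all 4 sets, against 11.7% of all genes. They were Ddx58, Ifih1, Irf1, Stat2, Usp18, Trim25, Ifit2, Mx1, Oasl, Gbp2, Gbp5, Bst2, Parp14, Psmb8, Psmb9, Psmb10 and Lgals3bp. Median differences for high vs. low dose were 0.48, 0.14, 0.37 and 0.12 in the order of the sets. No member separated the doses without overlap. Upwards, 0.359% of all genes did so when the high dose was set against untreated and 0.668% when it was set against the low dose. For the 21 members with A, B and C as the 3 highest cultures, no separation of doses was possible. Their part of this count says nothing about dose.

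Levels that increased stepwise from untreated to low to high dose were most frequent in A-B-C. There they were seen for 33 of the 41 genes, against 21.2% of all genes in the same 3 cultures. The counts were 5 for G-H-I and 12 each for M-N-O and P-Q-R, against 17%, 14.1% and 19.7% of all genes. With 1 culture per dose in a set, these orders have no replicate within the set.

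**Figure D3:**
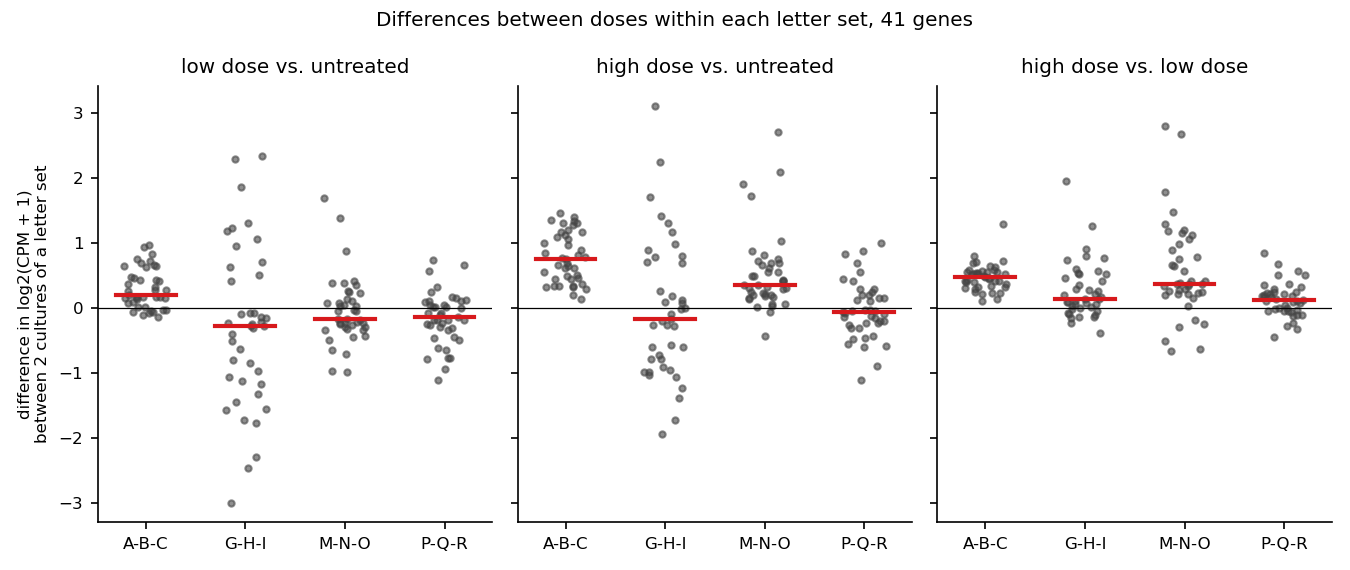
Difference in log2(CPM + 1) between 2 cultures of the same letter set (y axis) for the 41 genes (points, spread sideways for legibility only) in the 4 letter sets (x axis) and 3 dose comparisons (panels). Red lines are medians. For high dose vs. untreated they sit at 0.76 in A-B-C and 0.36 in M-N-O and at -0.17 and -0.055 in G-H-I and P-Q-R.

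More of these genes differed between letter sets than between doses. With dose in the model, 32 of the 41 genes differed between the 4 sets (edgeR quasi-likelihood F test, adjusted p under 0.05), against 27.9% of all genes. The median share of a gene's variation in log2(CPM + 1) that lay between sets was 78.4% for the 41 genes and 55.7% for all genes, while doses held 4.35% and 8.7%. The smallest p-values belonged to Ifit3 (F = 69.2, adjusted p = 0.000732), Isg15 (F = 67.3, adjusted p = 0.000732), Stat2 (F = 66.1, adjusted p = 0.000735), Irf7 (F = 58.8, adjusted p = 0.000926), Rtp4 (F = 47.1, adjusted p = 0.00133) and Ifitm3 (F = 46.3, adjusted p = 0.00138). Irf1, Trim25, Ifit1, Gbp2, Ifitm2, Isg20, Parp9, Parp14 and Psmb10 did not pass.

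Set A-B-C accounted for much of this. The mean of its 3 cultures was above that of the other 9 for 38 of the 41 genes, with a median ratio of 2.06, against 0.966 over all genes. Cultures A, B and C were the 3 highest of the 12 for 21 of the 41, against 14.3% of all genes. High dose culture C was the highest of all for 29, against 5.73% of all genes, and untreated culture G for 11, against 27.7%. When A-B-C was left out, 0 of the 41 passed the test between the remaining 3 sets (17 at an unadjusted p under 0.05), and 1.17% of all genes did. When culture G was left out as well, 26 of the 41 passed, against 30.6% of all genes, so the 3 other sets also differed from each other once G was set aside. The test between all 4 sets was made by DESeq2's likelihood ratio test too, with 38 of 41 genes passing, against 43.2% of all genes. Leaving out low dose culture B or high dose culture C lowered the count from 32 to 20 or 21, while the share of all genes fell to 12.5% and 13.8%. Without low dose culture Q or high dose culture R the count was 23, with 13.2% and 15.9% of all genes. A lower count on leaving out 1 culture was thus not particular to A-B-C.

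**Figure D4:**
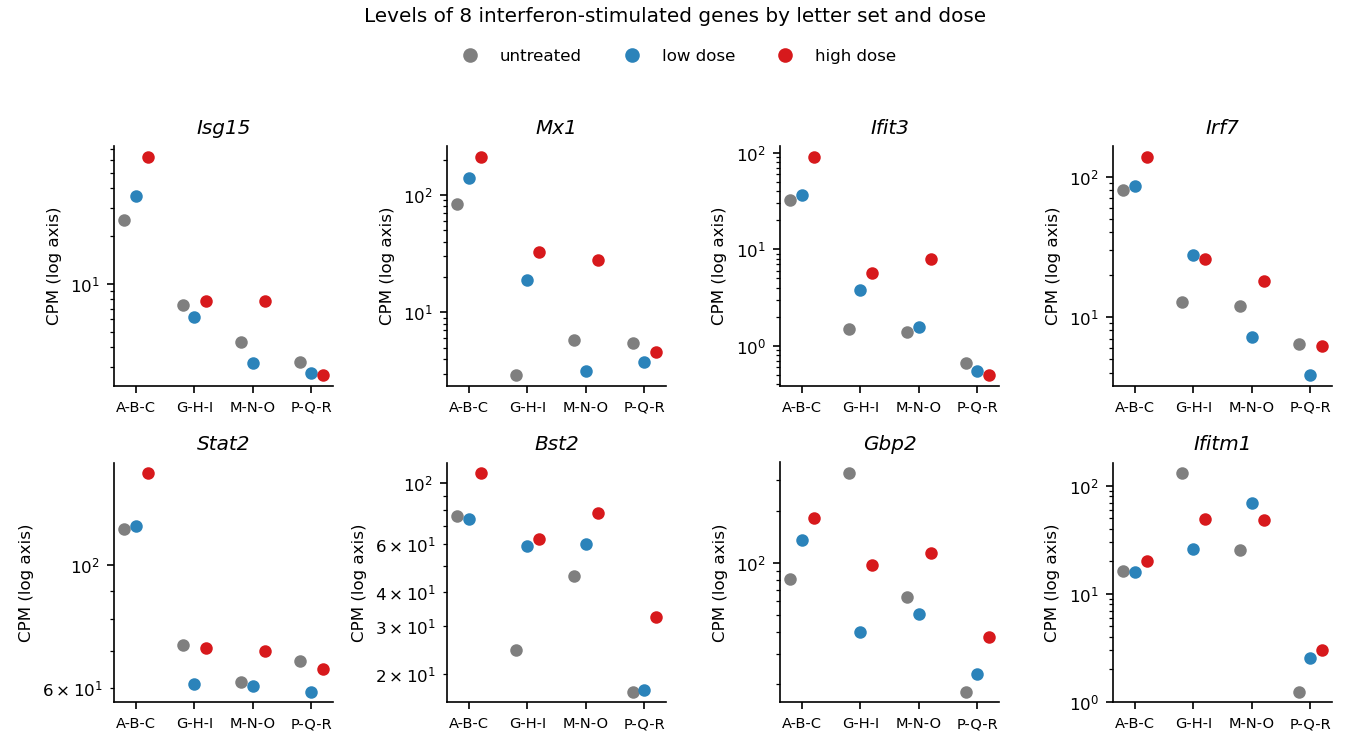
Level in CPM (y axis, log scale) of Isg15, Mx1, Ifit3, Irf7, Stat2, Bst2, Gbp2 and Ifitm1 in each culture, by letter set (x axis) and dose (grey untreated, blue low dose, red high dose). The 3 cultures of A-B-C lie above all others for Isg15, Mx1, Ifit3, Irf7 and Stat2, whereas untreated culture G is the highest for Gbp2 (327 CPM) and Ifitm1 (131 CPM).

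The 3 cytosolic RNA sensors all differed between sets. Ddx58, which encodes RIG-I, was at 52.0, 67.3 and 89.9 CPM in A, B and C and at 23.6 to 34.3 CPM in the other 9 cultures. Dhx58, which encodes the related regulator LGP2, was at 21.8, 29.6 and 44.5 CPM in A, B and C and at 5.55 to 12.1 CPM elsewhere. These genes separated A-B-C from the rest without overlap at every dose. Ifih1, the sensor of long double-stranded RNA, was at 27.3, 38.1 and 44.7 CPM and at 16.6 to 30.0 CPM elsewhere, so untreated culture A lay within the range of the others.

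Of the transcription factors, Irf7, Irf9 and Stat2 differed between sets and Irf1 did not. Irf7, which amplifies type I interferon production, was at 80.6, 85.4 and 138 CPM in A, B and C. It was at 12.7, 27.5 and 26.0 CPM in G, H and I, at 11.9, 7.24 and 17.9 CPM in M, N and O, and at 6.40, 3.85 and 6.16 CPM in P, Q and R. The mean of A-B-C was 7.62 times that of the other 9, and P-Q-R had the lowest levels. Stat2, a subunit of the complex that binds interferon response elements, was at 116, 118 and 146 CPM in A, B and C and at 59.2 to 71.7 CPM elsewhere, a narrow range outside A-B-C. Irf9, its partner, was 2.06 times higher in A-B-C.

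The protein modifier Isg15 was 8.15 times higher in A-B-C than in the other 9 cultures. Usp18, the protease that removes Isg15 from its targets and also restrains the type I receptor, was 5.49 times higher, with 23.1, 36.7 and 53.2 CPM in A, B and C and 3.10 to 10.4 CPM elsewhere. For both, the order within that set was untreated, low dose and high dose. Trim25 had its highest level, 39.4 CPM, in untreated culture G and 11.2 to 30.2 CPM in the others.

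The IFIT family, proteins that bind foreign RNA and block its translation, held the gene with the highest ratio, Ifit3, but also Ifit2 with a ratio of 3.24. Ifit3 was at 32.5, 36.7 and 91.2 CPM in A, B and C, at 1.49, 3.83 and 5.67 CPM in G, H and I, at 1.37, 1.57 and 7.87 CPM in M, N and O, and at 0.665, 0.550 and 0.496 CPM in P, Q and R. That is a ratio of 20.5 between A-B-C and the other 9. Outside P-Q-R the high dose culture was the highest of its set. Ifit1 had a ratio of 8.75 and did not pass the test. Its level was 3.60 to 10.6 CPM in A-B-C, and it had 3 counts or fewer in cultures M, Q and R. Ifit2 was at 56.4, 88.3 and 122 CPM in A, B and C and at 21.7 to 32.9 CPM elsewhere.

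Mx1 and Mx2 behaved alike in A-B-C, with ratios of 12.4 and 6.27 over the other 9 cultures, and both had their lowest level in untreated culture G. Mx2 was at 106, 143 and 233 CPM in A, B and C and at 8.17 to 43.9 CPM elsewhere. The OAS genes encode enzymes that make short adenylate chains and so activate an RNase. Oas1a, Oas1b and Oasl2 were 5.25, 4.44 and 5.46 times higher in A-B-C without overlap. Oasl was 2.85 times higher, and untreated culture A at 5.19 CPM lay below high dose cultures I and O. Near-identical copies can share reads within the OAS, Mx, IFIT and IFITM families, and how such reads were assigned is not given in the sources used here, so the split between their members is uncertain.

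Among the guanylate binding proteins and the IFITM family, Gbp2, Ifitm1 and Ifitm2 had their highest level in untreated culture G, while Gbp5 and Ifitm3 had theirs in culture C. Gbp2, a GTPase that attacks the membranes around intracellular microbes, was at 327 CPM in G, at 80.4, 136 and 181 CPM in A, B and C, at 64.1, 50.7 and 114 CPM in M, N and O, and at 18.2, 22.9 and 37.4 CPM in P, Q and R, with 40.2 and 97.8 CPM in H and I. With culture G set aside, the high dose culture had the most Gbp2 in every set. Gbp5 was at 42.4 CPM in G and at 25.3, 40.4 and 59.2 CPM in A, B and C.

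Ifitm1 was the member with the lowest ratio of A-B-C over the rest, 0.442. It was at 16.3, 15.9 and 20.2 CPM in A, B and C, at 131, 25.9 and 49.5 CPM in G, H and I, at 25.8, 68.9 and 48.0 CPM in M, N and O, and at 1.25, 2.55 and 3.02 CPM in P, Q and R. Ifitm2 had the same pair of highest cultures, G at 149 CPM and N at 70.6 CPM. Ifitm3 differed from both, with 230, 233 and 291 CPM in A, B and C and 30.3 to 110 CPM elsewhere, although the 3 genes encode closely related membrane proteins that block virus entry.

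Enzymes that act on nucleotides or RNA were mixed. Rsad2 encodes viperin, which makes a chain-terminating nucleotide, and it was at 52.9, 104 and 141 CPM in A, B and C, at 13.4, 5.37 and 23.6 CPM in G, H and I, at 6.45, 6.59 and 47.5 CPM in M, N and O, and at 5.90, 2.20 and 2.19 CPM in P, Q and R. High dose culture O came close to untreated culture A. Cmpk2, a nucleotide kinase that neighbours Rsad2 in function, was 2.34 times higher in A-B-C. Eif2ak2 encodes PKR, which halts translation on sensing double-stranded RNA, and was at 111, 123 and 144 CPM in A, B and C and at 64.7 to 88.4 CPM elsewhere. Isg20 had its highest level in untreated culture P (7.90 CPM) and a ratio of 1.07.

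Smaller ratios were seen for the PARP genes and the immunoproteasome, whose subunits replace the standard ones to make peptides for antigen presentation. Parp9 and Dtx3l form a complex that modifies histones and proteins, and their ratios were 1.46 and 1.94, while that of Parp14 was 1.18. Psmb8 and Psmb9 were 1.84 and 1.88 times higher in A-B-C, with untreated culture G at 54.7 and 23.9 CPM above or level with culture C at 49.8 and 23.9 CPM. Psmb10 had a ratio of 0.837. Psmb8 and Psmb9 passed the test between sets and Psmb10 did not.

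All 6 remaining members differed between sets. Ifi27, Ifi35, Ifi44 and Rtp4 were 1.91, 1.53, 2.96 and 4.60 times higher in A-B-C, and culture C had the highest level of each. Lgals3bp, a secreted glycoprotein, and Sp100, a nuclear body protein, were highest in culture G, at 267 and 9.02 CPM. Sp100 was at 0.0832, 0.206 and 0.248 CPM in P, Q and R, which is 1, 3 and 6 counts, and at 2.48 to 5.45 CPM in A, B and C.

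The sets also differed in markers of cell types. The mean of log2(CPM + 1) over the 41 genes was 5.10, 5.40 and 5.87 for set A-B-C, then 4.56, 4.26 and 4.54 for G-H-I, then 4.00, 3.96 and 4.53 for M-N-O, and lowest at 3.57, 3.41 and 3.54 for P-Q-R. By dose it was 4.31 ± 0.667 (SD, n = 4) untreated, 4.26 ± 0.839 at the low dose and 4.62 ± 0.959 at the high dose. The 16 markers of microglia or macrophages summed to 557 to 835 CPM in A-B-C and 1080 to 1910 CPM in G-H-I. Their sums were 913 to 2130 CPM in M-N-O and 62.5 to 81.5 CPM in P-Q-R. Of these 16 markers, 14 differed between sets, against 27.9% of all genes. The lowest sums and the lowest levels of the interferon-stimulated genes thus fell in the same set, while A-B-C, with the highest levels, had lower sums than G-H-I and M-N-O. The microglial receptor Cx3cr1 was at 1 count or fewer in each of P, Q and R.

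Other marker lists also had different sums in A-B-C. The 10 oligodendrocyte markers summed to 3060 to 4630 CPM there and to 7500 to 26300 CPM elsewhere, and 7 OPC markers to 515 to 704 CPM against 1120 to 2290 CPM. The 12 neuron markers summed to 7260 to 8390 CPM in A-B-C and to 570 to 5940 CPM elsewhere. For 7 of the 12, each of A, B and C lay above all other cultures. By the edgeR F test 0 of the 12 differed between sets, against 27.9% of all genes, with culture G and its few neuron markers included. Eno2 alone gave 3233 to 3912 CPM of that sum in A-B-C, and Nefl was lower there, at 209 to 226 CPM, than in every other culture except G. Markers of fibroblasts or mural cells summed to 645 to 717 CPM in A-B-C, of which 508 to 605 CPM came from Tagln, while the collagen gene Col1a1 was at 5.08 to 7.70 CPM there. The same sum was 1780 CPM in G and 3190 CPM in N, the cultures with the most Ifitm1 and Ifitm2. Col1a1 was at 502 and 1265 CPM in G and N. Markers of microglia or macrophages also had their highest sums in these cultures, at 1907 CPM in G and 2132 CPM in N. Whether Ifitm1 and Ifitm2 followed either marker list was not tested. Astrocyte markers were at 4680 to 6130 CPM in A-B-C and reached 15800 CPM in P-Q-R. Endothelial markers summed to 6.90 to 148 CPM, and 7 of 9 lymphocyte markers had at most 3 counts in any culture, with Nkg7 and Gzma at 0 throughout. The part of cell composition in the levels of the interferon-stimulated genes was not tested.

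**Figure D5:**
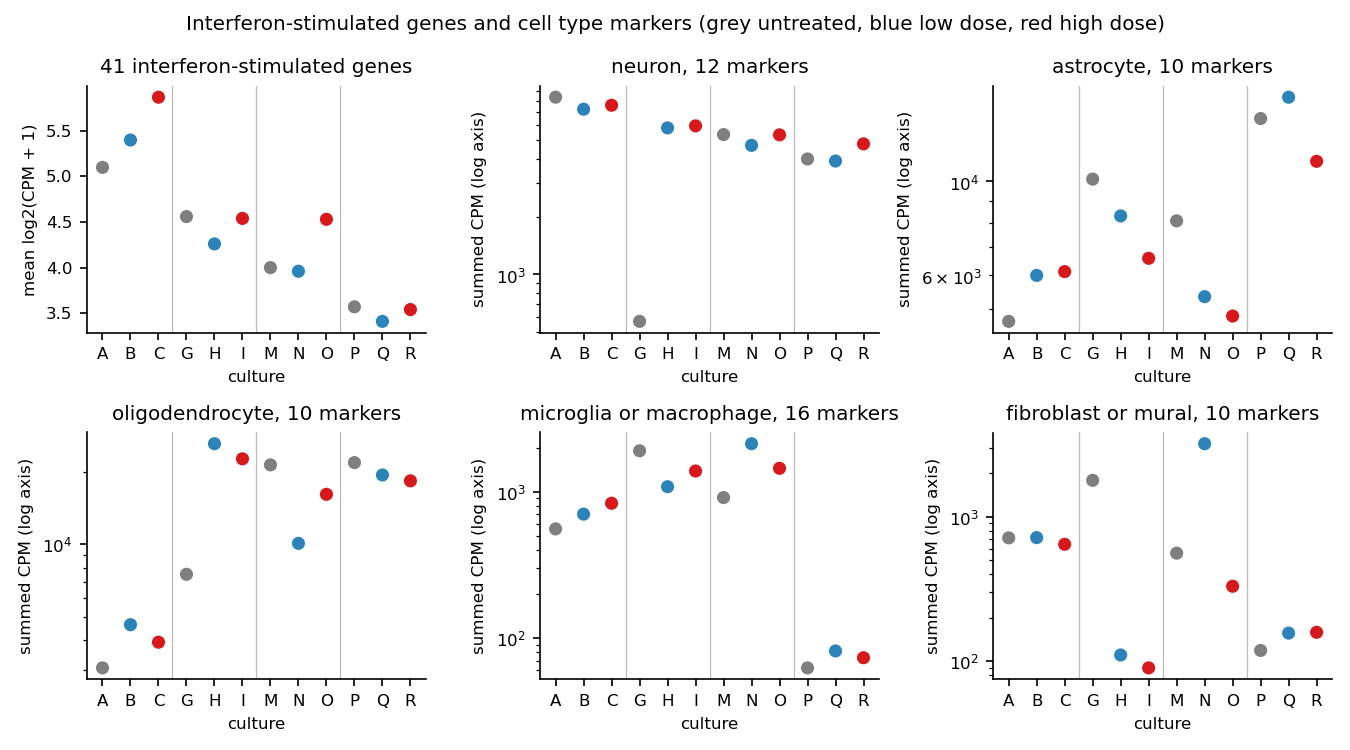
Mean of log2(CPM + 1) over the 41 genes (first panel) and summed CPM of 5 cell type marker lists (log scale) in each culture (x axis, letter sets split by lines; grey untreated, blue low dose, red high dose). The microglia or macrophage sum is 62.5 to 81.5 CPM in P-Q-R, where the mean of the 41 genes is also lowest, the neuron sum is lowest in G, and the oligodendrocyte sum is lowest in A-B-C.

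Upstream of these genes, transcripts of the interferons themselves were near absent. The 6 ligand genes with a row (Ifna1, Ifna2, Ifna4, Ifnb1, Ifnk and Ifng) had 6 counts in all over the 12 cultures and at most 1 in any culture, which allows a level of up to 0.124 to 0.249 CPM per gene. The receptor gene Ifnar1 was at 245, 231 and 244 CPM in A, B and C and at 164 to 230 CPM elsewhere (adjusted p = 0.0745 between sets). Ifngr1, the ligand-binding chain of the interferon gamma receptor, was lowest in P-Q-R at 27.9 to 36.2 CPM and highest in N at 131 CPM (adjusted p = 0.027), and Ifngr2, the signalling chain, was 1.27 times higher in A-B-C (adjusted p = 0.0397). Ifnar2 was not analysed here.

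Of 82 further genes of the pathway that were listed, 59 could be tested. By edgeR and by DESeq2, 0 of them passed the test in a dose comparison, with 1 at an unadjusted p under 0.05 at the high dose against untreated and 0 in the other comparisons. Between letter sets, 29 of the 59 differed, against 27.9% of all genes, and 18 of these had a higher mean in A-B-C. For the latter count no share of all genes is given. Jak1, the receptor kinase, was at 442, 404 and 422 CPM in A, B and C and at 265 to 333 CPM elsewhere. Cxcl10, an interferon-induced chemokine, was at 20.4, 50.4 and 69.3 CPM in A, B and C and at 1.66 to 17.8 CPM elsewhere, and Apol9a at 8.32, 10.3 and 15.9 CPM against 0.550 to 5.71 CPM. The others with a higher mean in A-B-C were Irf3, Tbk1, Pias1, Helz2, Ifi47, Igtp, Irgm, Lgals9, Oas2, Pnpt1, Slfn3, Tapbp, Tor3a and Uba7 beside Ifngr2. For Irf3 the means were nearly level, at 25.5 and 25.1 CPM, and its highest levels were in P and Q, at 38.5 and 36.3 CPM. Ifngr1, Irf5, Irf8, Tmem173, Tlr7, Tlr9, Traf3, Ptpn6, Lap3, Plscr1 and Slfn2 differed with a lower mean in A-B-C. The means were nearly level for Irf8, at 6.47 and 6.54 CPM, and for Slfn2, at 26.8 and 27.4 CPM. Several of the genes with a lower mean, such as Irf8, Tlr7 and Ptpn6, are known from microglia. Irf8 was at 0.482 to 0.868 CPM in P-Q-R and 5.72 to 15.3 CPM elsewhere.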

How the data were processed

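Poly(A) RNA of 12 cultures was sequenced, with 4 cultures per condition. Nothing in the labels says that they were separate preparations, so p-values measure the spread between these samples. The authors used STAR for alignment to rn6 and featureCounts for counting, and the deposited values are raw counts per gene symbol, from 12059872 to 24813893 per culture, without normalization. The paper names RUVseq and edgeR but neither the procedure nor the number of factors. Whether strand was used in counting is not given in the sources used here.

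Counts were scaled by TMM and filtered by filterByExpr, which kept 12271 genes, in R 4.3.3 with edgeR 4.0.16. The edgeR quasi-likelihood test was applied, adjusted by Benjamini-Hochberg over those 12271 genes, with dose and 1 RUVs factor, which held 41.0% of the variation within doses. Letter sets were tested by the F test of the same tool with dose as a term and no factor. A gene was called at an adjusted p under 0.05, and in dose comparisons also a log2 fold change beyond 0.5, up or down. Differences within sets used log2(CPM + 1). The scripts were tested on simulated data.

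The members, the pathway lists and the letter set test were chosen with earlier results of these data known. Fitted values are given for Bst2, Isg15, Mx1 and Oasl and for the 3 members with the smallest p per dose comparison, and for the letter sets the 6 with the smallest p. Levels of the others were chosen for the text after their values were seen. Other numbers of factors, the letter sets as a block, other scaling and filters, DESeq2 1.42.0 and leaving out each culture were tried. Coordinates and promoter sequences were not used here. A gene of the pathway lists is not reported here.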

Additional observations from a re-analysis of the deposited data

Results flagged for a closer look

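Of 126 groups of 4 cultures (41 members and the mean over them, at 3 doses), 10 held a culture that stood apart from the other 3 by Dixon's criterion, where chance flags about 1 in 20 groups, or 6.3 here. Culture A stood apart in the untreated condition for Dhx58 (21.8 CPM, others 7.06 to 8.32) and Ifit3 (32.5 CPM, others 0.665 to 1.49). Culture B did so at the low dose for Stat2 (118 CPM, others 59.2 to 61.0) and Gbp5 (40.4 CPM, others 9.90 to 11.7), and culture C at the high dose for Ddx58 (89.9 CPM, others 26.5 to 31.9), Stat2 (146 CPM, others 65.1 to 70.9) and Eif2ak2 (144 CPM, others 66.5 to 73.8). Culture G was high for Psmb10 among the untreated (58.7 CPM, others 27.2 to 30.0). Low values were those of low dose culture Q for Bst2 (17.5 CPM, others 58.7 to 73.8) and high dose culture R for Ifitm2 (10.8 CPM, others 38.2 to 45.0). Thus 7 of the 10 were high values in set A-B-C.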

How the results depend on the processing

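No alternative called any of the 41 genes in a dose comparison, and of 420 recomputed named values 27 changed direction, 17 of them on leaving out a culture. Without the factor, Isg15, Ifitm2 and Psmb10 in low dose vs. untreated were 0.242, -0.524 and -0.145, and Psmb10 in high dose vs. untreated was -0.0251. With 2 factors Oasl in low dose vs. untreated was -0.05, and with 4 factors Isg15 was 0.229. The letter sets as a replicate block in place of the factor gave -0.0664 for Oasl, -0.0336 for Ifitm2 and -0.0882 for Psmb10 in low dose vs. untreated, with medians over the 41 genes of -0.0973, 0.212 and 0.339 for the low dose and the high dose against untreated and for the 2 doses against each other. With the block and without culture G, Isg15 in low dose vs. untreated was 0.126, and the medians were 0.113, 0.406 and 0.35. At an unadjusted p under 0.05 (edgeR) there were 2, 22 and 18 of the 41 genes. The smallest adjusted p was 0.0843 (Gbp2, high dose vs. untreated, 1.07 with an SE of 0.18). Of all genes, 0, 15 and 14 were called in this fit. With 4 factors the counts at an unadjusted p under 0.05 were 2, 17 and 16 of the 41, and the smallest adjusted p was 0.0584. There, 0, 39 and 113 of all genes were called, against 0 in the reported model. The share of all genes at an unadjusted p under 0.05 is not given for these fits, so these counts have no background.

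Leaving out each culture in turn, low dose vs. untreated ran from -1.39 to 1.62 for Isg15, -1.57 to 3.14 for Mx1, -0.394 to 0.817 for Oasl and -0.104 to 0.931 for Bst2. High dose vs. untreated ran from -0.776 to 2.3 for Isg15, 0.0424 to 3.87 for Mx1, 0.21 to 1.32 for Oasl and 0.31 to 1.34 for Bst2, and high vs. low dose from -0.902 to 2.31 for Isg15, -0.507 to 3.04 for Mx1 and -0.161 to 1.31 for Oasl. Members that differed between letter sets numbered 20 (without culture B, 12.5% of all genes) to 40 (without culture G, 66.3% of all genes), and 0 of 41 when set A-B-C was left out (1.17% of all genes). With at least 10 counts in every culture, 38 of the 41 genes were left, 9 of them above 0 in low dose vs. untreated. In the other alternatives the count between letter sets ran from 26 (without A-B-C and culture G, 30.6% of all genes) to 39 (without G-H-I, 66% of all genes). The share of all genes ran from 20.4% (no filter) to 66% over these alternatives. The promoter comparison was not run. The causes of these changes were not tested.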
